A study of Homo sapiens with 2 samples.

Results

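The genes described here encode the subunits of the mitochondrial respiratory chain and of the ATP synthase that it drives. They were taken by symbol: names that start with MT-ND, MT-CO, MT-CYB or MT-ATP for the mitochondrial genome, and NDUF followed by A, B, C, S or V and a digit, UQCR, COX4 to COX8, ATP5F1, ATP5M, ATP5P and SDHA to SDHD for the nuclear genome. The rule found 102 of the 36601 genes in the files. It goes by symbol, so a subunit with another form of name is not a member. NDUFAB1, for example, is read below with the other electron carriers. Of these, 13 are mitochondrially encoded and 86 are nuclear-encoded subunits. The other 3, NDUFB2-AS1, NDUFV2-AS1 and NDUFA6-DT, are antisense or divergent transcripts that share a subunit's name and were kept apart.

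The study used single-cell RNA sequencing to read stress states for toxicology, and the libraries used here are 2 of its vehicle controls. HepaRG, an established line of human liver origin, was bought as the terminally differentiated NoSpin product and cultured for 7 days on collagen. Both libraries then received 0.1% DMSO for 24 h, with no chemical, and both were dissociated in a solution that held actinomycin D and anisomycin, which block transcription and translation. Each suspension of 10000 cells was captured with a 10x Genomics droplet kit that counts transcripts from their 3′ ends as unique molecular identifiers (UMIs). Both libraries carry the label of biological replicate 1, so the spread between them may be technical, and no value here describes independent cultures; the treated cultures were not analysed here.

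Oxidative phosphorylation moves electrons from NADH through complex I, or from succinate through complex II, to ubiquinone, then through complex III and cytochrome c to complex IV, where oxygen is reduced. The protons pumped on the way drive ATP synthase, which is called complex V. Complexes I, III, IV and V are built from subunits of both genomes, while all subunits of complex II are nuclear-encoded. Mitochondrial genes are transcribed inside the organelle as long RNAs of each strand, whereas nuclear subunit genes are scattered over the chromosomes and share regulators such as NRF1, GABP, the ERR receptors and the PGC-1 coactivators. Hepatocytes are rich in mitochondria, which also house part of their urea, fatty acid and amino acid metabolism.

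The mitochondrial genes sit on 1 circular chromosome so tightly that some overlap. In GRCh38 the end of MT-ATP8 and the start of MT-ATP6, which encode subunits of ATP synthase, share 46 bases at chrM:8527-8572. MT-ND4L and MT-ND4, which encode complex I subunits, share 7 bases at chrM:10760-10766. UMIs from these shared stretches cannot be told apart by gene, so the values of both pairs carry that uncertainty. The stretches are shown because the members of each pair are counted separately below, and both are read on the strand that carries every mitochondrially encoded member except MT-ND6.
MT-ATP8 and MT-ATP6 overlap: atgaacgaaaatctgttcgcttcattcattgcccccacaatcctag
MT-ND4L and MT-ND4 overlap: atgctaa

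The 86 nuclear subunit genes lie on 22 different chromosomes, and 66 of them had an upstream sequence in the RefSeq promoter table (GRCh38.p14). The 250 bases before each RefSeq start were searched on both strands for words of 3 known regulators. CGCATGCG, the core of the NRF1 site, was present before 9 of 66 members (13.6%), against 1.86% of all 27305 promoters in the table and 3.07% of those of the genes tested here. The share depended on the form of this word, and the other forms had been searched before this core was chosen. With a G before the core and a C after it, 3 of 66 members matched (4.55%), against 1.13% of all promoters and 1.80% of the genes tested. With GCGC on both sides of any 2 bases, 15 of 66 matched (22.7%), against 7.58% of all promoters and 12.5% of the genes tested. CCGGAAGT, the ETS word that GABP binds, was also present before 9 of 66 members (13.6%), against 3.64% and 6.28%. AAGATGGC, a YY1 word that overlaps neither of the others, was present before 1 of 66 members (1.52%), against 1.37% and 1.68%. Among 72 promoters of the mitochondrial ribosomal list read below, the ETS word was present in 9 (12.5%), near the share of the subunits. The NRF1 core was present in 3 of those 72 (4.17%) and the YY1 word in 6 (8.33%). These are matches of letters and do not show binding.

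The windows of members described below that hold the NRF1 or the ETS word are printed so that their flanks can be compared. Each has 30 bases, is read 5′ to 3′ on the strand that carries the word, and shows the word in capitals. In GENCODE 29, the COX6A1 window lay outside every exon, and each of the others printed overlapped an exon of its own gene. SDHD, a membrane anchor of complex II, carries both words before its start, in windows that also overlap an exon of TIMM8B on the opposite strand. ATP5MC2, a gene of the ATP synthase c subunit that is called lower below, carries the NRF1 word, while ATP5MC1, which encodes the same mature protein, carries none of the 3 words in this window.
SDHD, NRF1 word, chr11:112086753-112086782, plus strand: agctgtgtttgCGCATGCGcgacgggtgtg
COX6A1, NRF1 word, chr12:120437883-120437912, plus strand: cggagggcacaCGCATGCGcacgaaggaaa
ATP5PF, NRF1 word, chr21:25735155-25735184, minus strand: cactcaaagagCGCATGCGtacagagcaag
ATP5MC2, NRF1 word, chr12:53676106-53676135, minus strand: ggcccgggtcaCGCATGCGctgagccttcc
SDHD, ETS word, chr11:112086784-112086813, minus strand: tgctgggtgaaCCGGAAGTcgagaggcggt
NDUFA13, ETS word, chr19:19516204-19516233, plus strand: tccgcccgggaCCGGAAGTgtgggatactg
UQCRH, ETS word, chr1:46303640-46303669, minus strand: cggcgatctggCCGGAAGTgcggcacactc
UQCRQ, ETS word, chr5:132866577-132866606, plus strand: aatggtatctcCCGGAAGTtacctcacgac
COX5B, ETS word, chr2:97646014-97646043, plus strand: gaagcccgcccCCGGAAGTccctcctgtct
COX8A, ETS word, chr11:63974590-63974619, minus strand: ggctgcgctggCCGGAAGTtctggagctgg

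Cells were divided by the rule into 3 classes within each library. ALB-high cells had at least 50 albumin UMIs per 10000, and numbered 257 in replicate 1 and 357 in replicate 2. Dividing cells had at least 10 UMIs per 10000 of TOP2A, MKI67 and CENPF together, and numbered 1435 and 1606. The remaining cells numbered 2713 and 2881, and 49 and 50 cells that met both rules were left out. After filtering, replicate 1 had 4454 cells with a median of 17568 UMIs, and replicate 2 had 4894 cells with a median of 10407. Raw counts were summed per class and library, which gave 6 sums of between 4886895 and 46798021 UMIs.

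The classes matched their names by markers outside the rule. The sum of 14 hepatocyte markers without ALB was 12066 and 11249 CPM (UMIs per 1000000 UMIs of the class sum) in ALB-high cells of replicates 1 and 2, against 1023 and 1130 in remaining and 581 and 601 in dividing cells. All 14 were detected in ALB-high and in dividing cells, and only 1 was at 0 in remaining cells, in replicate 2. Detection therefore did not separate the classes, and the levels did. The 7 proliferation markers outside the rule summed to 1408 and 1394 CPM in dividing cells, 515 and 545 in remaining and 234 and 267 in ALB-high cells. The 10 mesenchymal markers summed to 257 and 261 CPM in remaining cells, 203 and 222 in dividing cells and 57.4 and 68.3 in ALB-high cells, where 3 and 2 of them were at 0. The 6 biliary markers did not move as a group: of the 4 tested, 2 were called higher and 2 lower in ALB-high than in remaining cells (edgeR, median log2 fold change 0.21). KRT19, which made up most of their sum, had 762 ± 7.43 CPM in remaining and 242 ± 21.8 in ALB-high cells, whereas SPP1 had 14.8 ± 0.356 and 87.2 ± 18.3 and SOX9 6.88 ± 0.447 and 23.7 ± 1.27 (SD, n = 2). Sums of 6 endothelial and of 6 immune markers were at most 43.0 and 16.03 CPM. The part of this mixture of cell types in the results below was not tested.

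In ALB-high cells the transcripts of both genomes took a larger share of the RNA than in the other classes, and the mitochondrial to nuclear ratio differed little. Mitochondrially encoded members made up 13.6% and 13.4% of all UMIs in ALB-high cells of replicates 1 and 2, 9.37% and 9.53% in remaining cells and 7.98% and 8.20% in dividing cells. The ALB-high mean was 13.5% ± 0.153 (SD, n = 2), the remaining mean 9.45% ± 0.120 and the dividing mean 8.09% ± 0.158. The 3 classes did not overlap between libraries.

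Nuclear-encoded subunits are given as a share of nuclear-encoded UMIs, so that the mitochondrial share does not enter. That share was 3.73% and 3.71% in ALB-high cells, 2.58% and 2.64% in remaining cells and 2.24% and 2.29% in dividing cells of replicates 1 and 2. The means were 3.72% ± 0.00992, 2.61% ± 0.0465 and 2.27% ± 0.0360 (SD, n = 2 each), in the same class order as for the mitochondrial genes. With 2 libraries a class, an exact permutation test of a single share cannot go below a two-sided p of 0.333, so these shares carry no test.

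The number of mitochondrial UMIs per nuclear subunit UMI was 4.24 and 4.18 in ALB-high cells, 4.01 and 3.99 in remaining cells and 3.87 and 3.90 in dividing cells. On the log2 scale the mean difference from remaining cells was 0.07 for ALB-high cells, with values of 0.08 in replicate 1 and 0.07 in replicate 2. It was -0.04 for dividing cells, with -0.05 and -0.03. The ALB-high difference turned to -0.08 when cells above 15% mitochondrial UMIs were left out, so its direction depended on where the mitochondrial limit was set. A limit on the mitochondrial share removes cells by the quantity compared, and it fell unequally on the classes: 33.5% and 35.6% of ALB-high cells lay above 15%, against 5.01% and 5.94% of remaining and 2.09% and 2.99% of dividing cells.

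**Figure D1:**
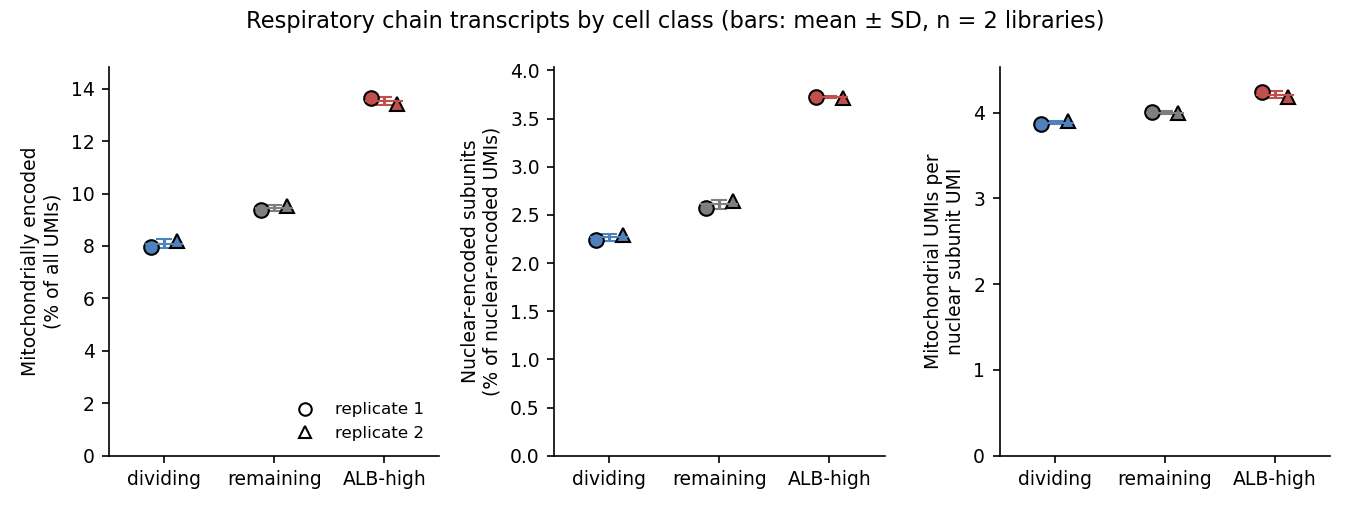
Left, mitochondrially encoded members as a percentage of all UMIs; middle, nuclear-encoded subunits as a percentage of nuclear-encoded UMIs; right, mitochondrial UMIs per nuclear subunit UMI, each by cell class. Points are libraries and bars mean ± SD (n = 2); both shares are highest in ALB-high cells (13.5% and 3.72%), while the ratio lies between 3.87 and 4.24 in all 6 sums.

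Other measures that can bear on these shares also differed between the classes, and not all in the same order. The nuclear-retained RNAs MALAT1 and NEAT1 together made up 1.98% ± 0.103 of UMIs in ALB-high, 1.57% ± 0.00290 in remaining and 1.36% ± 0.0163 in dividing cells (SD, n = 2). In dividing against remaining cells NEAT1 was called lower (-0.65 ± 0.04) and MALAT1 was not called (-0.07 ± 0.04, edgeR adjusted p = 0.13). The MTRNR2L genes, nuclear near-copies of a mitochondrial rRNA, summed to 94.8 and 101 CPM in ALB-high cells, 51.9 and 55.0 in remaining and 45.5 and 43.5 in dividing cells. Median UMIs per cell in replicates 1 and 2 were 20256 and 12103 in ALB-high, 16225 and 9602 in remaining, and 20834 and 12137 in dividing cells. The part of these differences in the results was not tested, and a larger share of transcripts per cell cannot be told apart from less of other RNA.

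All 13 mitochondrially encoded genes were called higher in ALB-high than in remaining cells by edgeR at an adjusted p under 0.05. Over all 19147 genes tested, 23.9% were called higher in that comparison and 24.2% lower. The median log2 fold change of the 13 genes was 0.65, against -0.02 for all genes, and 11 of 13 were at least 1.5-fold higher, against 13.6% of all genes. Scaled by library totals alone, without TMM, the median of all genes moved to -0.17 and that of the 13 genes to 0.51, and 18.1% of all genes were called higher and 32.9% lower. The count at 1.5-fold was 2 with that scaling, and also 2 with a mitochondrial limit of 15%.

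MT-ND1 and MT-ND2, complex I subunits of the membrane arm, had the largest fold changes among the 13. MT-ND1 had 4718 and 4460.5 CPM in ALB-high, 2851 and 2925 in remaining and 2586 and 2626 in dividing cells of replicates 1 and 2. MT-ND2 had 2869 and 2695 in ALB-high, 1698 and 1778 in remaining and 1577 and 1619 in dividing cells. For both, the ALB-high libraries lay above every other sum. Their log2 fold changes in ALB-high against remaining cells were 0.81 ± 0.04 (SE) for MT-ND1 and 0.82 ± 0.04 for MT-ND2, with edgeR adjusted p of 6.1e-13 and 1.6e-12.

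MT-ND6, the complex I subunit encoded on the other strand of the circle, had the smallest change. It had 402 and 369.6 CPM in ALB-high, 322 and 304 in remaining and 316 and 298 in dividing cells. The log2 fold change was 0.44 ± 0.03 (SE; edgeR adjusted p = 2.4e-10), and the ALB-high values stood above the other 4 without overlap. Among the complex IV genes, MT-CO2, whose protein takes electrons from cytochrome c, had 28037 and 28005 CPM in ALB-high, 19015 and 19482 in remaining and 16165 and 16763 in dividing cells. Its log2 fold change was 0.69 ± 0.03 (edgeR adjusted p = 4.3e-13). MT-CYB, the mitochondrial subunit of complex III, differed by 0.62 ± 0.04 and MT-ATP6, the proton channel subunit of ATP synthase, by 0.61 ± 0.04.

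The make-up of the mitochondrial transcripts was nearly fixed. MT-CO1, MT-CO2, MT-CO3 and MT-ATP6 together took between 73.3% and 74.9% of mitochondrial member UMIs in all 6 sums. MT-CO2 alone took 20.7% in ALB-high, 20.4% in remaining and 20.4% in dividing cells on average. MT-ND6 took 0.285% in ALB-high, 0.332% in remaining and 0.379% in dividing cells on average. These are shares of captured UMIs, and UMIs from the stretches shared by overlapping genes cannot be told apart. They therefore do not rank the genes by molecules made.

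**Figure D2:**
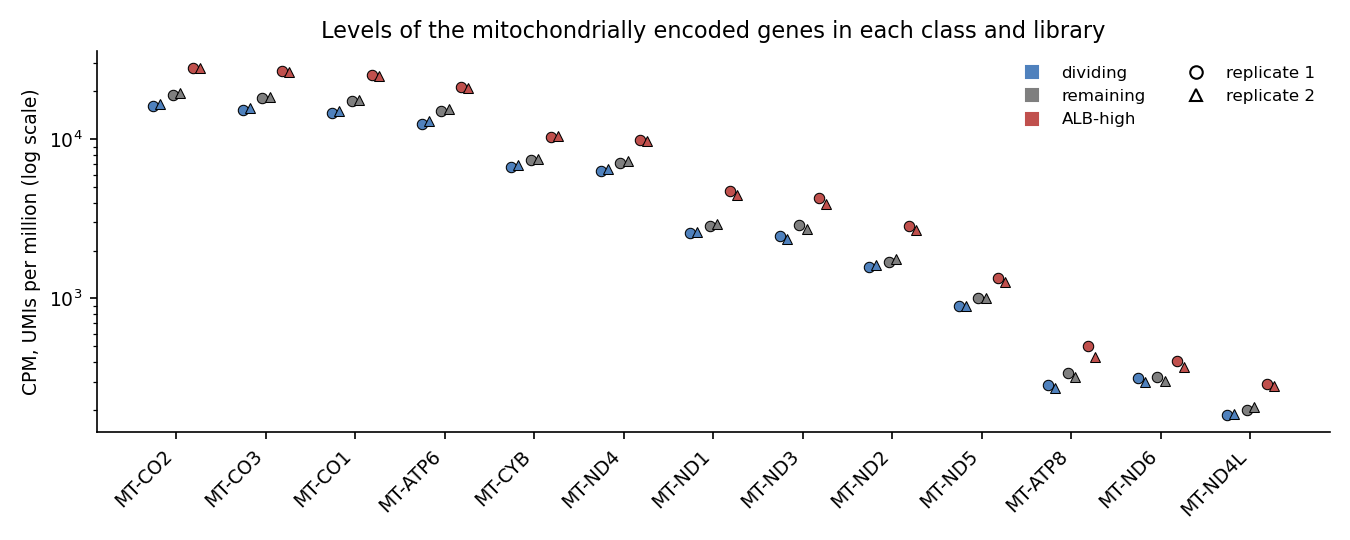
CPM (log scale) of each mitochondrially encoded gene in dividing, remaining and ALB-high cells of replicates 1 and 2; each point is 1 sum. For every gene both ALB-high points lie above the other 4, from MT-CO2 (28037 and 28005 in ALB-high) down to MT-ND4L. No share over all genes is given here for such separation.

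Nuclear-encoded subunits were also higher in ALB-high cells, in nearly every member. Of the 86, 82 were tested, and COX4I2, COX6B2, COX7A1 and COX8C fell under the filter on low counts. In ALB-high against remaining cells 78 of the 82 were called higher, 2 lower and 2 not called. The median log2 fold change was 0.59, and 42 of 82 were at least 1.5-fold higher, a count that was 22 with scaling by library totals alone. In the fit, 80 of the 82 had a positive log2 fold change, against 9249 of all 19147 genes. In single libraries, 78 and 79 of the nuclear subunits had a ratio of ALB-high to remaining above 1 when CPM were compared with no further scaling. A subunit with 0 UMIs in either class gave no ratio, and no share over all genes is given here for these ratios.

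Complex I takes electrons from NADH and is the largest complex. All 36 of its tested nuclear members were called higher, with a median log2 fold change of 0.39, and 9 of the 36 were at least 1.5-fold higher. The 7 core subunits, which hold the flavin and the iron-sulfur clusters, had a median of 0.67, and the 29 accessory subunits a median of 0.38. NDUFS5 and NDUFA13, the accessory members with the most UMIs, had small changes. NDUFS5 had 533 and 546 CPM in ALB-high, 521 and 521 in remaining and 492 and 488 in dividing cells, and its log2 fold change was 0.19 ± 0.03 (edgeR adjusted p = 9.3e-06). With library totals alone the NDUFS5 value was 0.05 and the call was lost (edgeR adjusted p = 0.18). NDUFA13 had 511 and 546 CPM in ALB-high, 471 and 488 in remaining and 429 and 457 in dividing cells, a log2 fold change of 0.28 ± 0.03. NDUFS4, an accessory subunit picked out after its values were seen, had the smallest positive change of complex I at 0.12 ± 0.05 (edgeR adjusted p = 0.038). That call was lost in 8 of 12 alternatives of the fit, DESeq2 among them (adjusted p = 0.22). With library totals alone the log2 fold change was -0.03, and the log2 ratios of CPM in replicates 1 and 2 taken singly were -0.02 and -0.04.

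Complex II, or succinate dehydrogenase, joins the citric acid cycle to the chain. All 4 members were called higher, each at least 1.5-fold. SDHA, the flavoprotein that oxidises succinate, had 129 and 125 CPM in ALB-high, 83.7 and 83.0 in remaining and 90.1 and 92.4 in dividing cells, a log2 fold change of 0.75 ± 0.05. SDHB, the iron-sulfur subunit, had 169 and 156 CPM in ALB-high, 92.8 and 98.9 in remaining and 83.6 and 86.9 in dividing cells, and changed by 0.91 ± 0.05 (edgeR adjusted p = 4.2e-12). The membrane anchors SDHC and SDHD changed by 0.69 ± 0.05 and 0.67 ± 0.05. For each of the 4 genes both ALB-high values exceeded the other 4 sums, a separation for which no share over all genes is given here.

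Complex III passes electrons from ubiquinol to cytochrome c. All 9 nuclear members were called higher, 8 of them at least 1.5-fold, with a median of 0.70. UQCRQ, a small subunit next to cytochrome b, had the largest change of the complex. It had 654 and 626 CPM in ALB-high, 360.0 and 355 in remaining and 332 and 320.1 in dividing cells, a log2 fold change of 0.99 ± 0.03 (edgeR adjusted p = 7.3e-17). UQCRH, the hinge protein that contacts cytochrome c1, and UQCRB, a ubiquinone-binding subunit, changed by 0.60 ± 0.04 and 0.56 ± 0.04. UQCRHL was called at 0.70 ± 0.24 (edgeR adjusted p = 0.018), and this call was lost in 6 of 12 alternatives, DESeq2 among them (adjusted p = 0.11). It is a near-copy of UQCRH, so the division of UMIs between them is uncertain; it had 49 UMIs in ALB-high cells against 9091 for UQCRH.

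Complex IV, cytochrome c oxidase, reduces oxygen. Of its 19 nuclear members 15 were tested, and 13 were called higher, 1 lower and 1 not called, with a median log2 fold change of 0.71. NDUFA4, named for complex I but now placed in complex IV, had 1817 and 1810.3 CPM in ALB-high, 1166 and 1213 in remaining and 997 and 1032 in dividing cells. Its log2 fold change was 0.75 ± 0.04 (edgeR adjusted p = 2.7e-12). COX4I1, the ubiquitous form of the regulatory subunit that binds ATP, had 1055 and 995 in ALB-high, 697 and 742 in remaining and 617 and 644 in dividing cells, and changed by 0.66 ± 0.05.

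COX7A2L was the complex IV member called lower. It belongs to the COX7A family and is known as a factor that joins complexes III and IV into supercomplexes. It had 128 and 148 CPM in ALB-high, 171 and 176 in remaining and 159 and 162 in dividing cells. Both ALB-high values lay below the other 4, and the log2 fold change was -0.19 ± 0.05 (edgeR adjusted p = 0.0021). The call was lost when cells were thinned to 4000 UMIs (-0.14, edgeR adjusted p = 0.20). Its relative COX7A2, the liver form of the structural subunit, had 775 and 730.3 CPM in ALB-high against 531 and 530.0 in remaining cells, and changed by 0.65 ± 0.03.

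Several complex IV subunits have a tissue-restricted isoform, and these were near 0 in all classes. COX4I2, the lung form that responds to low oxygen, had 0 UMIs in all 6 sums. COX7A1, a heart and muscle form, had 0 UMIs in ALB-high, 1 in dividing and 2 in remaining cells, and COX8C had 1 UMI in all. COX6B2, a testis form, had 1 UMI in ALB-high, 11 in dividing and 19 in remaining cells. COX7B2 had 3, 24 and 18 UMIs in those classes and was not called. Their widely expressed partners COX6B1, COX7B and COX8A had 528 ± 10.9, 669 ± 0.785 and 466 ± 14.8 CPM in ALB-high cells (SD, n = 2), and were called higher there than in remaining cells, by 0.63, 0.73 and 0.48 on the log2 scale.

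A pair of isoforms, COX6A2 and NDUFA4L2, had the largest log2 fold changes of all members, at very low levels. COX6A2, the heart and muscle form of subunit VIa, had 6.21 and 6.14 CPM in ALB-high, 1.62 and 2.01 in remaining and 1.57 and 1.48 in dividing cells. That was 66 UMIs in ALB-high and 137 in remaining cells, and the log2 fold change was 1.93 ± 0.24 (edgeR adjusted p = 8.1e-07). NDUFA4L2, a paralog of NDUFA4 known to be induced by hypoxia, had 3.10 and 2.25 CPM in ALB-high, 0.513 and 0.825 in remaining and 0.385 and 0.382 in dividing cells. Its log2 fold change was 2.21 ± 0.40 (edgeR adjusted p = 9.4e-05), on 29 UMIs in ALB-high and 49 in remaining cells. The common forms COX6A1 and NDUFA4 stood at 617 ± 24.9 and 1813 ± 4.42 CPM in ALB-high cells (SD, n = 2).

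Complex V, the ATP synthase, had 18 tested nuclear members, of which 16 were called higher, 1 lower and 1 not called, with a median of 0.60. ATP5F1D, the delta subunit of the central stalk, had 648 and 710.5 CPM in ALB-high, 376 and 413 in remaining and 321 and 349 in dividing cells, a log2 fold change of 0.93 ± 0.03 (edgeR adjusted p = 1e-16). ATP5PF, coupling factor 6 of the peripheral stalk, had 816 and 823 in ALB-high, 466 and 494 in remaining and 397 and 413 in dividing cells, and changed by 0.92 ± 0.03. ATP5F1E, the epsilon subunit of the central stalk, changed less, by 0.42 ± 0.04. ATP5MGL, a member at about 3 CPM, was not called (0.20 ± 0.27).

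The c subunit, whose ring turns in the membrane, is made from 3 genes that encode the same mature protein, and these genes were not called in the same direction. ATP5MC3 had 1168 and 1231 CPM in ALB-high, 781 and 845 in remaining and 645 and 698 in dividing cells, a log2 fold change of 0.71 ± 0.04. ATP5MC1, picked out after its values were seen, had 715 and 727 in ALB-high, 414 and 457 in remaining and 387 and 407 in dividing cells, and changed by 0.88 ± 0.03. ATP5MC2 had 243 and 260.1 in ALB-high, 305 and 304 in remaining and 283 and 295 in dividing cells, and its log2 fold change was -0.13 ± 0.04 (edgeR adjusted p = 0.0053). Both ALB-high values of ATP5MC2 lay below the other 4, although its call was lost with a mitochondrial limit of 15% (adjusted p = 0.052 in edgeR), with thinning (0.18 in edgeR) and in DESeq2 (adjusted p = 0.11).

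The named transcripts that are no subunits had few UMIs. NDUFA6-DT, a divergent transcript at NDUFA6, had 8.96 and 8.19 CPM in ALB-high, 5.86 and 5.67 in remaining and 5.78 and 5.34 in dividing cells, and was called higher in ALB-high cells (0.72 ± 0.17, edgeR adjusted p = 0.0014). NDUFV2-AS1 and NDUFB2-AS1 were not called there. In dividing against remaining cells NDUFV2-AS1 was called higher (0.67 ± 0.16, edgeR adjusted p = 0.0013) and NDUFB2-AS1 lower (-0.61 ± 0.24, edgeR adjusted p = 0.04). Whether the authors' counting used strand is not given in the sources used here, so reads of an antisense transcript and its partner may be mixed.

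**Figure D3:**
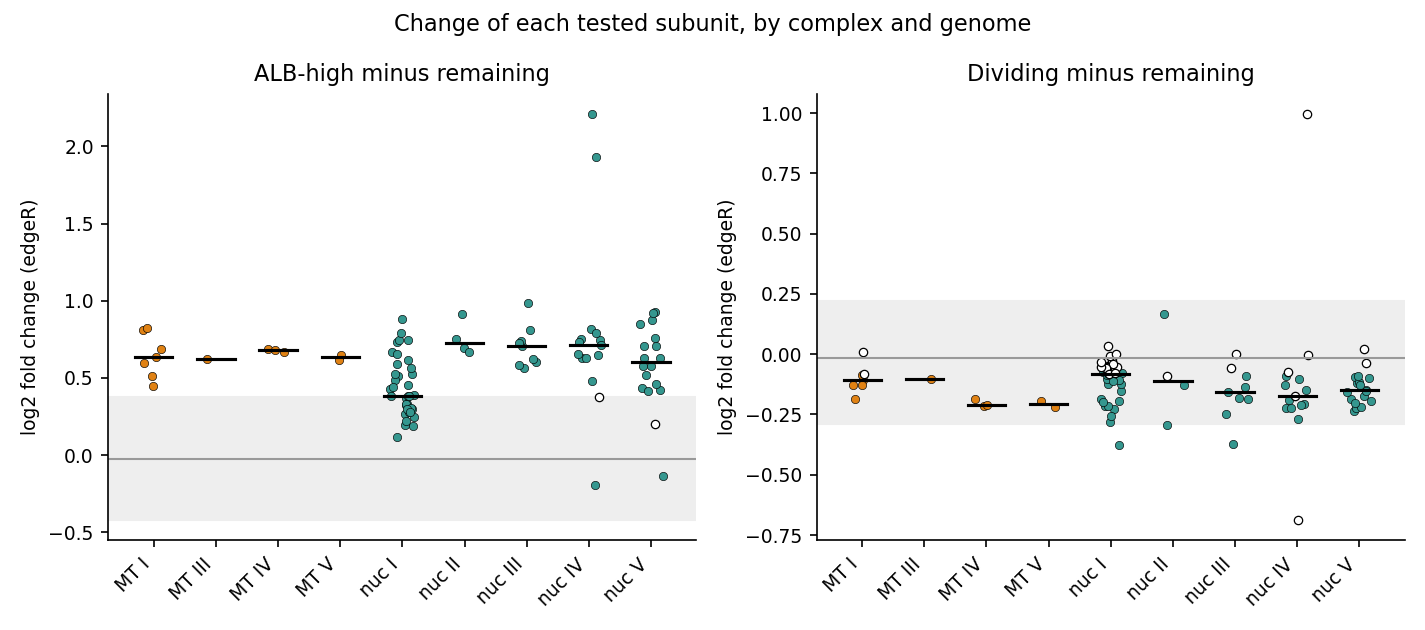
Log2 fold change (edgeR) of every tested subunit in ALB-high (left) and dividing (right) cells against remaining cells, grouped by genome (MT, mitochondrial; nuc, nuclear) and complex. Filled points were called at an adjusted p under 0.05 and open points were not; black bars are group medians, the grey line is the median of all 19147 genes and the grey band their middle range (25th to 75th percentile). On the left nearly all points lie above the band's centre, with complex I nuclear members lowest (median 0.39); on the right most lie slightly below 0.

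Dividing cells showed small decreases in members of both genomes. Of all genes tested, 23.9% were called lower and 24.8% higher in dividing than in remaining cells; both comparisons share the remaining cells. Of the 13 mitochondrial genes 11 were called lower and 0 higher, with a median log2 fold change of -0.13. Of the 82 nuclear subunits 55 were called lower, 1 higher and 26 not called, with a median of -0.12 against -0.02 for all genes. No member of either genome was called at 1.5-fold or more, against 8.30% of all genes lower and 6.51% higher by that much. DESeq2 called 33 nuclear subunits lower and 0 higher.

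The mitochondrial changes in dividing cells differed in size between complexes, with a median log2 fold change of -0.21 for the 3 complex IV genes and -0.11 for the 7 complex I genes; the difference between them was not tested. The complex IV genes MT-CO1, MT-CO2 and MT-CO3 changed by -0.21, -0.19 and -0.21 and MT-ATP6 by -0.22 ± 0.04 (edgeR adjusted p = 2.6e-05). MT-ATP8 and MT-ND3 changed by -0.19 and -0.19. Smaller decreases were called for MT-ND5 and MT-ND4, at -0.13 and -0.13, for MT-ND1 and MT-CYB, at -0.11 and -0.10, and for MT-ND4L, at -0.09. MT-ND2 and MT-ND6 were not called, at -0.08 ± 0.04 and 0.01 ± 0.03. With the dividing rule read as raw UMIs, MT-ND6 was called lower (-0.11, edgeR adjusted p = 0.033). With a mitochondrial limit of 15%, or with no library term in the model, 7 of the 13 genes were called lower, and MT-ND1, MT-ND4, MT-ND4L and MT-CYB lost their calls in both.

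NDUFA8 and UQCRC2 had the largest nuclear decreases. NDUFA8, an accessory complex I subunit of the intermembrane space, had 108 and 116 CPM in dividing, 145 and 153 in remaining and 174 and 177 in ALB-high cells, and its log2 fold change in dividing against remaining cells was -0.37 ± 0.03 (edgeR adjusted p = 4.5e-09). UQCRC2, a core protein of complex III, had 91.7 and 91.1 in dividing, 121 and 123 in remaining and 186 and 202 in ALB-high cells, a log2 fold change of -0.37 ± 0.04. In both genes the 3 classes formed separate steps without overlap.

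Smaller decreases came from every complex. SDHD changed by -0.29 ± 0.04, NDUFB5 by -0.28 ± 0.03, COX5B by -0.27 ± 0.04 and NDUFA3 by -0.26 ± 0.04. By complex, 20 of 36 nuclear members of complex I were called lower, 7 of 9 of complex III, 10 of 15 of complex IV and 16 of 18 of complex V. Complex II divided: SDHB and SDHD were called lower and SDHA higher (0.17 ± 0.04, edgeR adjusted p = 6.3e-04), while SDHC was not called. The SDHB call (-0.13 ± 0.04, edgeR adjusted p = 0.014) was lost with thinning, with the raw UMI rule, with cells meeting both rules placed with dividing cells, and in DESeq2, at adjusted p of 0.053 to 0.71. SDHA was the only tested subunit called higher in dividing cells, and DESeq2 did not call it (adjusted p = 0.088).

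The direct comparison of ALB-high with dividing cells had the same direction as that with remaining cells for the groups as a whole. All 13 mitochondrial genes were called higher in ALB-high cells, against 27.3% of all genes, with a median log2 fold change of 0.85. Of the 82 nuclear subunits 78 were called higher and 2 lower, against 29.2% of all genes lower, with a median of 0.74. The 2 called lower were COX7A2L (-0.12 ± 0.05, edgeR adjusted p = 0.042) and ATP5MC2 (-0.10 ± 0.04, edgeR adjusted p = 0.036), and under 5 of the 12 alternatives, DESeq2 among them, no nuclear subunit was called lower. This comparison shares its sums with the other 2 and is no further evidence.

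Within a class, cells with a larger mitochondrial share also had a larger share of nuclear subunits. Over the 2713 and 2881 remaining cells the Spearman correlation between the mitochondrial percentage and nuclear subunit UMIs per 10000 nuclear UMIs was 0.61 and 0.59. It was 0.62 and 0.56 over the 1435 and 1606 dividing cells. Over the 257 and 357 ALB-high cells it was 0.21 and 0.15. Cells of a class share a library and a suspension, and the mitochondrial percentage also fell with depth (Spearman -0.25 and -0.26 with UMIs in remaining cells), so these values are descriptive.

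Banding cells by mitochondrial share left a difference between the classes in nuclear subunits. In cells with 5 to 10% mitochondrial UMIs, ALB-high cells had 311 and 331 nuclear subunit UMIs per 10000 nuclear UMIs against 229 and 235 in remaining cells, a ratio of 1.36 and 1.41 on 25 and 43 ALB-high cells. In the 10 to 15% band the ratio was 1.22 and 1.21, and in the 15 to 25% band 1.11 and 1.08. Below 5% there was 1 ALB-high cell in each library, so no ratio was read. Dividing cells lay below remaining cells in every band of both libraries, at ratios of 0.865 to 0.984.

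**Figure D4:**
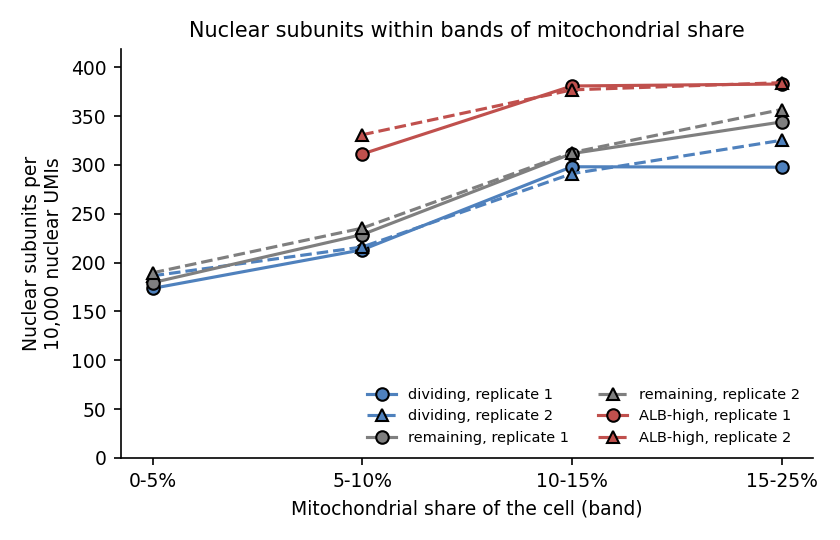
Nuclear subunit UMIs per 10000 nuclear UMIs of pooled cells in bands of mitochondrial share, by class and library (solid, replicate 1; dashed, replicate 2). ALB-high values start at the 5 to 10% band and lie above remaining cells in each band shown (311 and 331 against 229 and 235 in the first), and the gap narrows toward the 15 to 25% band.

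The class limits cut through changes that began below them. Along ALB, mitochondrial UMIs were 8.90% and 9.04% in non-dividing cells with no ALB UMI and 14.3% and 14.3% at 200 or more ALB UMIs per 10000, with an increase at each step in both libraries. Nuclear subunits behaved otherwise at the top: they went from 240.3 and 241 UMIs per 10000 nuclear UMIs without ALB to 385 and 389.9 at 100 to 200, and were 357 and 330.3 at 200 or more. The mitochondrial to nuclear ratio was lowest in the middle, at 3.71 and 3.69 for 20 to 50 ALB UMIs per 10000, and highest at 200 or more, at 4.66 and 5.04. Just outside the ALB limit (20 to 50) cells had 11.9% and 12.02% mitochondrial UMIs, and just inside it (50 to 100) 12.5% and 12.7%. Nuclear subunits were 365 and 370 per 10000 nuclear UMIs just outside the limit and 380 and 393 just inside it. From the bin above 0 to 5 to the bin 5 to 20, nuclear subunits rose from 247 and 257 to 338 and 334. Mitochondrial UMIs rose from 9.12% and 9.30% to 11.5% and 11.2% over that step.

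Along the dividing genes the shares changed less. Mitochondrial UMIs were 10.0% and 10.3% in cells with no TOP2A, MKI67 or CENPF UMI and 7.61% and 7.85% at 40 or more per 10000. Nuclear subunits went from 267 and 275 to 208 and 224 per 10000 nuclear UMIs over the same range. The ratio stayed between 3.74 and 4.18 in all bins of both libraries. Just outside the limit (5 to 10) cells had 8.61% and 8.63% mitochondrial UMIs and just inside it (10 to 20) 8.22% and 8.32%.

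**Figure D5:**
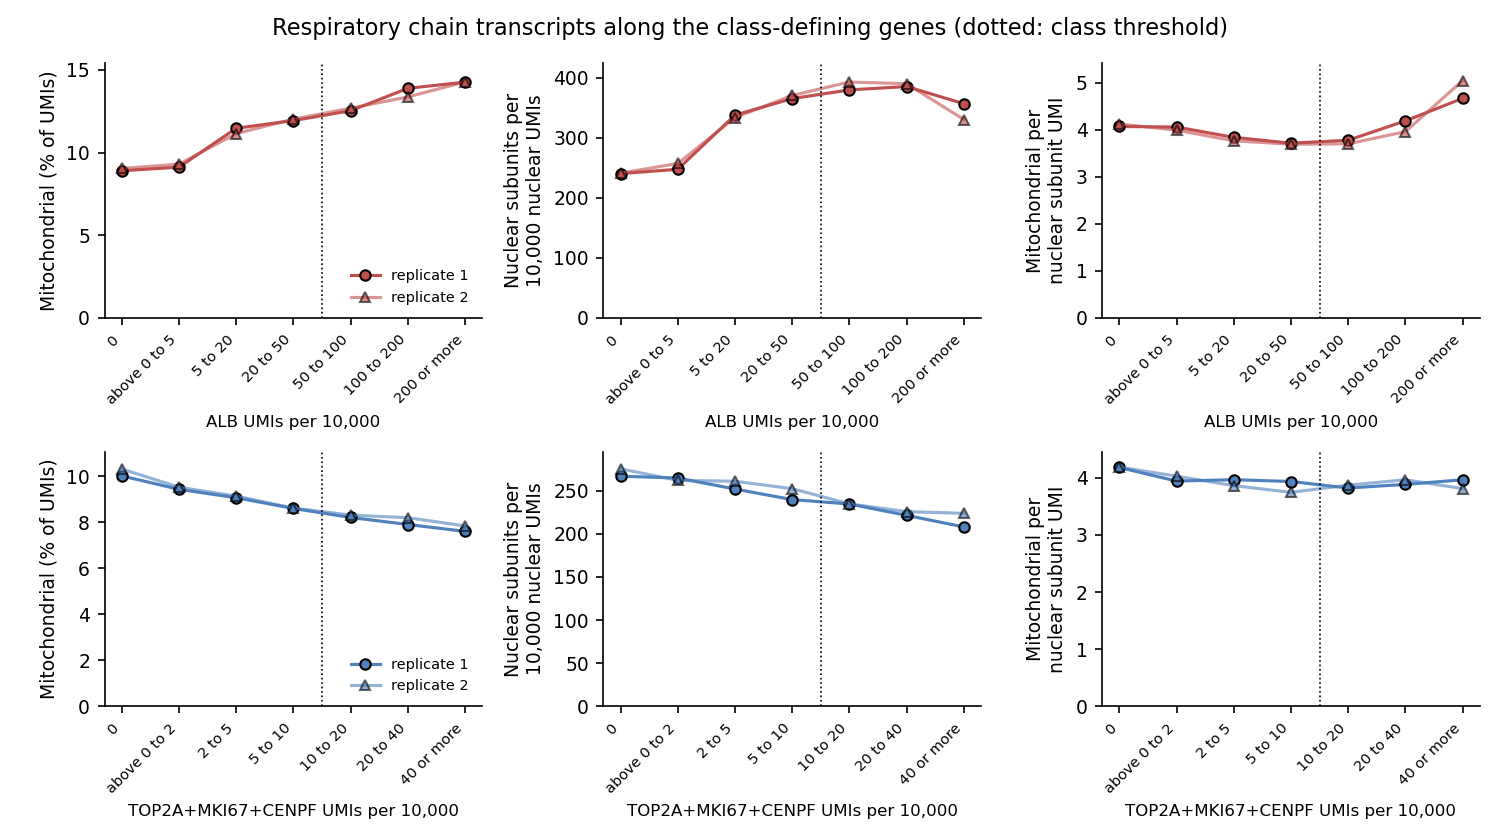
Top row, cells that are not dividing in bins of ALB UMIs per 10000; bottom row, cells that are not ALB-high in bins of TOP2A, MKI67 and CENPF UMIs per 10000. Columns give mitochondrial UMIs (% of all), nuclear subunits per 10000 nuclear UMIs and their ratio, lines are libraries, and dotted lines are the class limits; nuclear subunits drop in the last ALB bin (357 and 330.3) while the mitochondrial share does not.

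Genes that build, feed and regulate the chain were read from separate lists in the same fit, with members named by the size of their change. The citric acid cycle and pyruvate dehydrogenase list, which supplies NADH and succinate, had 16 of 16 genes higher in ALB-high than in remaining cells. The share over all genes was 23.9%, and the median log2 fold change of the list was 0.56. SUCLG1, a subunit of succinyl-CoA ligase, changed by 0.77 ± 0.05 and DLAT, of pyruvate dehydrogenase, by 0.68 ± 0.06. In dividing cells 9 of the 16 were lower (56.25%) and 0 higher, against 23.9% and 24.8% of all genes. IDH3A, of NAD-dependent isocitrate dehydrogenase, had -0.29 ± 0.04 there.

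Other electron carriers and ubiquinone synthesis genes were higher for 13 of 19 (68.4%) in ALB-high cells and lower for 2 (10.5%). The median was 0.43, and the shares over all genes were 23.9% and 24.2%. SQOR, which passes electrons from sulfide to ubiquinone, changed by 0.89 ± 0.09. DHODH, the pyrimidine synthesis enzyme that also reduces ubiquinone, changed by 0.88 ± 0.11, and COQ8A, needed for ubiquinone synthesis, by 0.86 ± 0.10. In dividing cells 4 of the 19 were higher (21.1%) and 9 lower (47.4%), against 24.8% and 23.9% of all genes. COQ2, an early enzyme of ubiquinone synthesis, had 0.51 ± 0.05 there and SQOR -0.49 ± 0.07.

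Counts for assembly factors and the mitochondrial expression machinery in ALB-high cells are read against the 23.9% of all genes called higher and 24.2% called lower. Of 14 complex I assembly factors 5 were higher (35.7%) and 3 lower (21.4%; median 0.05), with ECSIT at 0.66 ± 0.08 and TMEM126B at -0.61 ± 0.09. Of 32 factors for complexes II to V, 15 were higher (46.9%) and 3 lower (9.38%; median 0.17), with COA3, a cytochrome c oxidase assembly factor, at 1.19 ± 0.06. Of 28 genes of mitochondrial DNA maintenance and expression 8 were higher (28.6%, near the share of all genes) and 3 lower (10.7%; median 0.12). Those with the largest increases were FASTKD5 at 0.65 ± 0.14, HSD17B10 at 0.61 ± 0.06 and POLRMT, the mitochondrial RNA polymerase, at 0.52 ± 0.11. The 3 called lower were SSBP1 (-0.36 ± 0.04), PNPT1 (-0.32 ± 0.07) and TFAM (-0.17 ± 0.06, edgeR adjusted p = 0.021). Of 80 tested mitochondrial ribosomal protein genes 36 were higher (45%) and 10 lower (12.5%; median 0.13), with MRPL41 at 0.84 ± 0.04.

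In dividing cells 24.8% of all genes were called higher and 23.9% lower, and several of these lists lay near those shares. Assembly factors of complex I were higher for 4 of 14 (28.6%) and lower for 1. Those of complexes II to V were higher for 8 of 32 (25%) and lower for 9 (28.1%), with UQCC3, a complex III factor, at 0.58 ± 0.05. Mitochondrial ribosomal protein genes were higher for 30 of 80 (37.5%) and lower for 16 (20%). TFAM, which packages and transcribes mitochondrial DNA, had 111 ± 2.15 CPM in dividing and 89.8 ± 0.937 in remaining cells (SD, n = 2), and was called higher (0.34 ± 0.03, edgeR adjusted p = 4.5e-08). In the DNA expression list as a whole, 8 of 28 were higher (28.6%) and 4 lower (14.3%).

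The nuclear regulators of respiration were 10 genes, of which 5 were higher (50%) and 1 lower (10%) in ALB-high cells. Over all genes these shares were 23.9% and 24.2%. The list's median log2 fold change was 0.10, with 5 values above 0 and 5 below. The gene called lower was PPARGC1B, at -0.36 ± 0.14 (edgeR adjusted p = 0.041). ESRRG and ESRRA, orphan nuclear receptors that act on respiratory genes, changed by 1.29 ± 0.05 and 0.67 ± 0.05, and PPARGC1A, their coactivator PGC-1 alpha, by 0.66 ± 0.04. PPARGC1A had 182 ± 9.36 CPM in ALB-high, 128 ± 4.44 in remaining and 64.6 ± 0.165 in dividing cells (SD, n = 2). In dividing cells 4 of the 10 were higher (40%) and 5 lower (50%), against 24.8% and 23.9% of all genes. PPARGC1A and PPARGC1B changed by -0.94 ± 0.04 and -0.98 ± 0.09 there, and GABPB1, a subunit of GABP, by 1.14 ± 0.06 (edgeR adjusted p = 4.7e-12). The others called higher were NRF1 (0.61 ± 0.04), YY1 (0.34 ± 0.03) and GABPA (0.19 ± 0.07). The others called lower were ESRRG (-0.64 ± 0.05), ESRRA (-0.60 ± 0.04) and SIRT3 (-0.44 ± 0.07). These RNA levels do not measure the activity of a regulator.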

How the data were processed

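Per the file headers, the authors made the deposited UMI counts per barcode and gene with Cell Ranger 7.0.0; the submitters' processing notes name STAR and GRCh38. Neither the annotation release nor the use of strand is given in the sources used here. A file held 36601 genes and 12 antibody features with 0 UMIs, which were not used. Replicate 1 had 4591 barcodes and 85475317 UMIs, and replicate 2 had 4998 and 57246647.

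Cells needed 500 genes, 1000 UMIs and no more than 25% mitochondrial UMIs. In replicates 1 and 2, 37 and 32 barcodes failed on genes, 65 and 56 on UMIs, and 78 and 57 on mitochondrial share (a barcode can fail more than 1). The libraries shared 10 barcodes, 7 after filtering. No doublet caller was run; the cells meeting both class rules were left out, and leaving out the deepest 4% of cells was an alternative. Ambient RNA was not corrected for. The limit of 10 for the dividing genes was read as UMIs per 10000, with raw UMIs as an alternative.

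Raw counts were summed per class and library and fitted with edgeR 4.0.16 (R 4.3.3): quasi-likelihood F test, TMM, filterByExpr and Benjamini-Hochberg adjustment over 19147 genes. All 6 sums entered 1 model with the library as a block, since the classes of a library come from the same suspension, which left 2 residual degrees of freedom. A gene was called at an adjusted p under 0.05, and by a second rule also at 1.5-fold. Each SE is the size of the log2 fold change over the square root of F, so it is not estimated apart from the test. The counts that defined the classes were also the ones compared. The block removes a shift that all classes of a library share. The p-values therefore rest only on how evenly the class differences recurred in these 2 libraries. The quasi-likelihood fit also shares information on spread across genes, so a small p-value does not come from the 2 residual degrees of freedom alone. CPM values are UMIs per 1000000 UMIs of a class sum, with no further scaling. DESeq2 1.42.0 was an alternative.

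In data simulated for ALB-high against remaining cells (18669 genes), edgeR recovered 25, 42, 49 and 50 of 50 genes changed by 1.25, 1.5, 2 and 4-fold, with 6 false calls. DESeq2 recovered 14, 35, 45 and 50, with 0. The simulation gave every gene the same dispersion of 0.001 and no difference between libraries beyond depth. Only the 50 genes per fold were changed, drawn from genes above a minimum expected count. These counts therefore do not give the error rate of the calls above.

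The members and lists were chosen with earlier results of these data known. Named members were all mitochondrial genes, the 2 nuclear members per complex with the highest mean CPM, up to 6 called members per contrast and direction with the largest change and the same sign in both libraries, the SDH genes, the tissue-restricted isoforms with their partners, and 3 called genes per other list, 1 of which is not reported here. FASTKD4, 1 of 29 listed mitochondrial expression genes, was not found. GENCODE 29 gave positions for 102 of 102 members by gene ID, and RefSeq promoters (GRCh38.p14) matched 66 of 86. Python 3.11.15, numpy 2.4.6, pandas 2.3.3, scipy 1.17.1 and matplotlib 3.10.9 were used.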

Additional observations from a re-analysis of the deposited data

How the results depend on the processing

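All 13 mitochondrial genes were called higher in ALB-high than in remaining cells under each of the 12 alternatives of the fit, and between 74 and 80 of the 80 nuclear calls were kept. At 1.5-fold the mitochondrial count of 11 was 2 with a 15% mitochondrial limit, 2 with library totals and no TMM and 7 with no filter on low counts, and the nuclear count of 42 was 22 with no TMM. The 2 nuclear subunits lower in ALB-high cells became 1 with the 15% limit, 0 with cells thinned to 4000 UMIs and 1 in DESeq2. Against dividing cells those 2 became 0 with the 15% limit, with thinning, with cells meeting both rules placed with dividing cells, with no replicate block and in DESeq2, and 1 with the raw UMI rule or without the deepest 4% of cells. In dividing cells the 11 mitochondrial genes called lower were 7 with the 15% limit and 7 with no replicate block, the 55 nuclear subunits were 33 in DESeq2, and the 1 called higher was 0 in DESeq2. Leaving out the replicate block kept 79 of 80 nuclear calls for ALB-high cells and 42 of 56 for dividing cells. The log2 mitochondrial to nuclear ratio of ALB-high against remaining cells (0.07) was -0.083 with the 15% limit, 0.11 with no limit, 0.062 with the raw UMI rule, 0.16 with ALB at 100 per 10000 and 0.10 without the deepest cells; for dividing cells (-0.04) it was -0.026 with the 15% limit and -0.083 with the raw UMI rule. With 1 library at a time it was 0.07 to 0.08 and -0.05 to -0.03. Counts of calls have no value without a replicate, since no residual degree of freedom is left. Among single members, NDUFS4 in ALB-high cells reversed to -0.026 with no TMM and to between -0.038 and -0.015 in single libraries, NDUFA7 to -0.0047 with thinning, and MT-ND6 in dividing cells to -0.11 with the raw UMI rule. There were 190 results for single members, not all of them called. The calls were 13 mitochondrial and 80 nuclear members in ALB-high cells, and 11 and 56 in dividing cells. Of these calls, 22 were lost with the 15% limit, 29 in DESeq2 and 0 when mitochondrial genes were left out of the scaling. The cause of these changes was not tested. Depth limits the isoforms under 10 CPM, 9 of the 86 nuclear subunits.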

Other observations

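Some barcodes lay outside the 3 classes. Those over the 25% mitochondrial limit would have counted as ALB-high for 11 and 15 barcodes of replicates 1 and 2, as dividing for 11 and 8 and as remaining for 41 and 20. In these barcodes mitochondrial members made up 33.8% to 39.2% of UMIs, and nuclear subunits 68.7 to 218 UMIs per 10000 nuclear UMIs, so that the mitochondrial to nuclear ratio was 27.8 to 91.4. Their ALB-high members had 218 and 198 nuclear subunit UMIs per 10000 nuclear UMIs, against 131 and 122 in those that were neither ALB-high nor dividing.

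The 49 and 50 cells that met both class rules had 12.9% and 12.1% mitochondrial UMIs and 349 and 355 nuclear subunit UMIs per 10000 nuclear UMIs. Their median depth was 24032 and 16484 UMIs, and their mitochondrial to nuclear ratio was 4.26 and 3.89. Whether they are doublets was not tested.

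The libraries differed little from each other over the members. Among the 77 nuclear subunits with a mean of at least 30 CPM, the log2 ratio of replicate 2 to replicate 1 had an SD of 0.08 in ALB-high, 0.05 in dividing and 0.05 in remaining cells. MT-ATP8 differed most among the mitochondrial genes in ALB-high cells, by 0.23 on the log2 scale in size.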
